A study of Mus musculus with 10 samples.

Results

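The cyclins and kinases that move a cell through G1, with their substrate Rb1 and its partner E2f1, were examined in hematopoietic stem cells (HSCs) of aged mice without the aryl hydrocarbon receptor (AHR). The genes were taken from a list of 10 named genes (Cdk2, Cdk4, Cdk6, Ccnd1, Ccnd2, Ccnd3, Ccne1, Ccne2, Rb1 and E2f1). They were chosen by name, with no threshold on a measured value, but with earlier results of these data known. Of these, 9 had a probe set of their own among the 22180 genes that could be named. The only probe set of Ccne2, the second E-type cyclin, is shared with the neighboring annotation Ints8, so Ccne2 was not analysed here. The data were 10 Affymetrix Mouse Gene 2.0 ST arrays, 1 per mouse, from 5 AHR-KO mice and 5 WT mice with an intact Ahr gene, all of the C57BL/6J strain and 18 months old. AHR-KO mice lack the receptor in every tissue, so the cells around the HSCs lacked it as well. The methods give their line as AHR tm3.1Bra/J, a designation that was not checked here. Lineage-negative marrow cells of each mouse were stained and the SLAM+ ones (CD150+ and CD48-) were sorted as HSCs. The methods also name antibodies to Sca-1, cKit and CD34, and the abstract of the paper gives the sorted cells as CD34- too. RNA of the sorted cells was amplified before it was put on an array. Values are given on a log2 scale after 16 was added to the linear signal, which understates differences between dim genes.

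Progress through G1 is paced by cyclin-dependent kinases. D-type cyclins, which growth signals induce, bind CDK4 and CDK6, and these kinases begin to phosphorylate the retinoblastoma protein RB1. RB1 then releases E2F factors, which switch on the genes of the E-type cyclins and of DNA replication, and cyclin E with CDK2 completes the phosphorylation. Most HSCs rest outside the cycle. In human HSCs a low level of CDK6 goes with a slow exit from rest, and mouse HSCs without Cdk6 leave it poorly.

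The promoters of the kinase genes are shown because the AHR was the factor removed and because Cdk6 was the member whose groups did not overlap. Each sequence is the stretch of 250 bases before the start of the gene in RefSeq (build GRCm38.p6), 5′ to 3′ on the strand of the gene. Capitals mark any match, on either strand, to the core of the xenobiotic response element bound by the AHR with ARNT (GCGTG), the E-box of MYC and related factors (CACGTG) or an E2F motif (TTTCCCGC, TTTGGCGC, TTTCGCGC or TTTGCCGC).
Cdk6 (chr5:3343643-3343892, plus strand): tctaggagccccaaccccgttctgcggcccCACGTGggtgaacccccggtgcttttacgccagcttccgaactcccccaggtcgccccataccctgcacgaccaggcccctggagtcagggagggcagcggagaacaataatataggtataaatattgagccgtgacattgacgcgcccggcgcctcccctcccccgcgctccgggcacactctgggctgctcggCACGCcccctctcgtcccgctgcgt
Cdk4 (chr10:127063285-127063534, plus strand): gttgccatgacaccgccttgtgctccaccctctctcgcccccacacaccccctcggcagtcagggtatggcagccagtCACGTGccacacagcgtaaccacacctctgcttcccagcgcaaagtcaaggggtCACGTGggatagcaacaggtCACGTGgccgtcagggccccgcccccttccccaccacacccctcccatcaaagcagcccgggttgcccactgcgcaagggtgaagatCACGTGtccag
Cdk2 (chr10:128705052-128705301, minus strand): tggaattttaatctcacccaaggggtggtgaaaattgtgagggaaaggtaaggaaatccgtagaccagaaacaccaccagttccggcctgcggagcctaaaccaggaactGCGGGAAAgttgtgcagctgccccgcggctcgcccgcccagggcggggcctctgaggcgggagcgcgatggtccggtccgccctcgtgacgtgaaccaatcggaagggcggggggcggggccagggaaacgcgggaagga

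The stretch before Cdk6 held 1 xenobiotic response element core, read on the opposite strand, which began at position -25 from the start, and 1 E-box. That before Cdk4 held 4 E-boxes and no core, and that before Cdk2 held 1 E2F motif, also on the opposite strand, and neither of the others. No sequence here holds more than 1 of the 3 kinds of motif except that of Cdk6. A core was present in 28.2% of all 32851 stretches of this length in the table, an E-box in 6.02% and an E2F motif in 1.86%. Sequences were given for 6 of the 10 listed genes in 7 stretches, and 4 of these, before Cdk6, Ccne1, E2f1 and 1 of the starts of Ccnd3, held the core. Ccne1 held it 3 times. The motifs do not overlap in these sequences, and a match describes letters only.

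The main axis of variation among the arrays did not divide them by genotype. A principal component analysis over all genes put 30.6% of the variance on its first axis, with 2 arrays of each genotype on its positive side (replicates 1 and 2 of AHR-KO, replicates 1 and 5 of WT) and 3 of each on its negative side. The sorted cells were checked through marker lists, and the score of a list is how far its genes lay, on average, above or below their own 10-array means in log2 units. In the 4 arrays on the positive side the score of 13 HSC identity genes was 0.04 to 0.50, that of 10 neutrophil genes -1.79 to -0.43 and that of 9 monocyte, macrophage and dendritic cell genes -1.34 to -0.14. In the 6 others these scores were -0.60 to 0.01, -0.10 to 2.07 and 0.07 to 0.84. The score of 4 multipotent progenitor genes was -0.71 to -0.39 in the 4 arrays on the positive side and 0.02 to 0.51 in the 6 others. So the arrays with more HSC signal had less myeloid and less multipotent progenitor signal, in both genotypes. Between the genotypes, 12 of the 13 HSC genes had a lower mean in AHR-KO (score -0.60 to 0.44 in AHR-KO and -0.21 to 0.50 in WT), none under an unadjusted p of 0.05 in limma, and the part of this in the differences of the members was not tested. Background was taken as the 95th percentile of 1088 olfactory receptor genes, at a log2 value of 5.50, and of the HSC genes only Fgd5 lay under it. A higher mean in AHR-KO was found for 6 of 10 neutrophil genes, 4 of 9 monocyte, macrophage and dendritic cell genes, 5 of 6 T and NK cell genes, 3 of 5 B cell genes (Ebf1, Pax5 and Vpreb1 being under background), 1 of 4 multipotent progenitor genes and 2 of 5 megakaryocyte genes. Of 7 erythroid genes 6 had a higher mean in AHR-KO (score -0.34 to 1.36 in AHR-KO and -1.08 to 1.10 in WT). All 5 mast cell and basophil genes had a lower mean in AHR-KO (score -1.34 to 0.37 in AHR-KO and -0.44 to 0.88 in WT), 3 of them (Mcpt8, Cpa3 and Prss34) under an unadjusted p of 0.05 in limma. Beside these counts, 51.1% of all genes had a higher mean in AHR-KO and 3.74% were under an unadjusted p of 0.05 in limma. Cd48, whose protein the sort excludes, was at 6.45 to 9.44 in AHR-KO and 7.12 to 8.82 in WT, above background in every array. Cd34, whose protein is also excluded by the sort as the abstract gives it, was at 10.09 to 10.85 in AHR-KO and 10.26 to 11.06 in WT. Mpo, a granulocyte enzyme gene, was at 10.62 to 12.55 in AHR-KO and 11.27 to 12.39 in WT. The targeted gene Ahr had log2 values of 5.17 to 6.52 in the arrays labeled AHR-KO and 4.70 to 6.78 in those labeled WT. The sources do not say which part of Ahr is deleted, so this probe set does not check the labels.

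Whether HSCs without AHR differ from WT HSCs in the G1 genes was asked first of the kinases. Cdk6, the D-cyclin kinase most tied to blood cells, was the only member whose groups did not overlap. The value of Cdk6 was known beforehand, so the p-values given for it describe its difference and are not an independent test. Its log2 value was 9.72, 9.68, 9.88, 9.66 and 9.59 in the AHR-KO arrays (replicates 1 to 5), against 9.22, 9.56, 9.56, 9.10 and 9.23 in the WT arrays (replicates 1 to 5). All 5 AHR-KO arrays lay above all 5 WT arrays, though the lowest AHR-KO array (9.59) and the highest WT arrays (9.56) were close. The mean was 9.70 ± 0.11 in AHR-KO and 9.33 ± 0.21 in WT (SD, n = 5 each), a log2 fold change of 0.37 (standard error 0.12, 95% interval 0.10 to 0.64), or 1.29-fold. On the linear scale the mean signal was 820.1 ± 65.3 in AHR-KO and 634.8 ± 96.5 in WT (SD, n = 5 each). The unadjusted p from limma was 0.0113, the 162nd smallest of the 22180 genes, and the exact permutation test over the 10 arrays gave p = 0.00794 (two-sided), the smallest that 5 arrays against 5 allow. After Benjamini-Hochberg adjustment over all genes the p from limma was 0.998, so Cdk6 did not pass, and its difference was below the 1.5-fold limit of the methods of the study. Groups that do not overlap were seen in 0.681% of all genes, 0.347% with AHR-KO higher. The lower means of the HSC, mast cell and basophil genes in AHR-KO stand beside this difference, and their part in it was not tested. In sorted cells a difference in the share of a cell type and a difference in RNA per cell cannot be told apart.

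Cdk4, which binds the same D-type cyclins as Cdk6, had close means in the genotypes. Its log2 value was 10.35, 10.27, 10.34, 10.30 and 10.23 in the AHR-KO arrays (replicates 1 to 5), against 10.38, 10.28, 10.43, 10.19 and 10.01 in the WT arrays (replicates 1 to 5). The AHR-KO arrays all lay within the span of the WT arrays. The means were 10.30 ± 0.05 in AHR-KO and 10.26 ± 0.17 in WT (SD, n = 5 each), and the log2 fold change of 0.040 (standard error 0.11) had a 95% interval of -0.20 to 0.28 (adjusted p = 0.998 from limma). Cdk4 was among the steadiest genes on the arrays, since 5.50% of all genes had a smaller pooled SD.

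Cdk2, the partner of the E-type cyclins, leaned the other way without passing a test. Its log2 value was 7.42, 7.51, 7.76, 7.32 and 8.06 in the AHR-KO arrays (replicates 1 to 5), against 8.03, 8.19, 7.71, 7.93 and 7.51 in the WT arrays (replicates 1 to 5). The arrays of AHR-KO replicates 1 and 4 lay below every WT array, while AHR-KO replicate 5 was within the WT range, and the groups overlapped. The log2 fold change was -0.26 (standard error 0.17, 95% interval -0.63 to 0.12, unadjusted p = 0.158 and adjusted p = 0.998 from limma, exact permutation p = 0.190). With 1 array left out the log2 fold change lay between -0.37 (unadjusted p = 0.0415 from limma, without AHR-KO replicate 5) and -0.18 (unadjusted p = 0.331 from limma, without WT replicate 2).

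**Figure D1:**
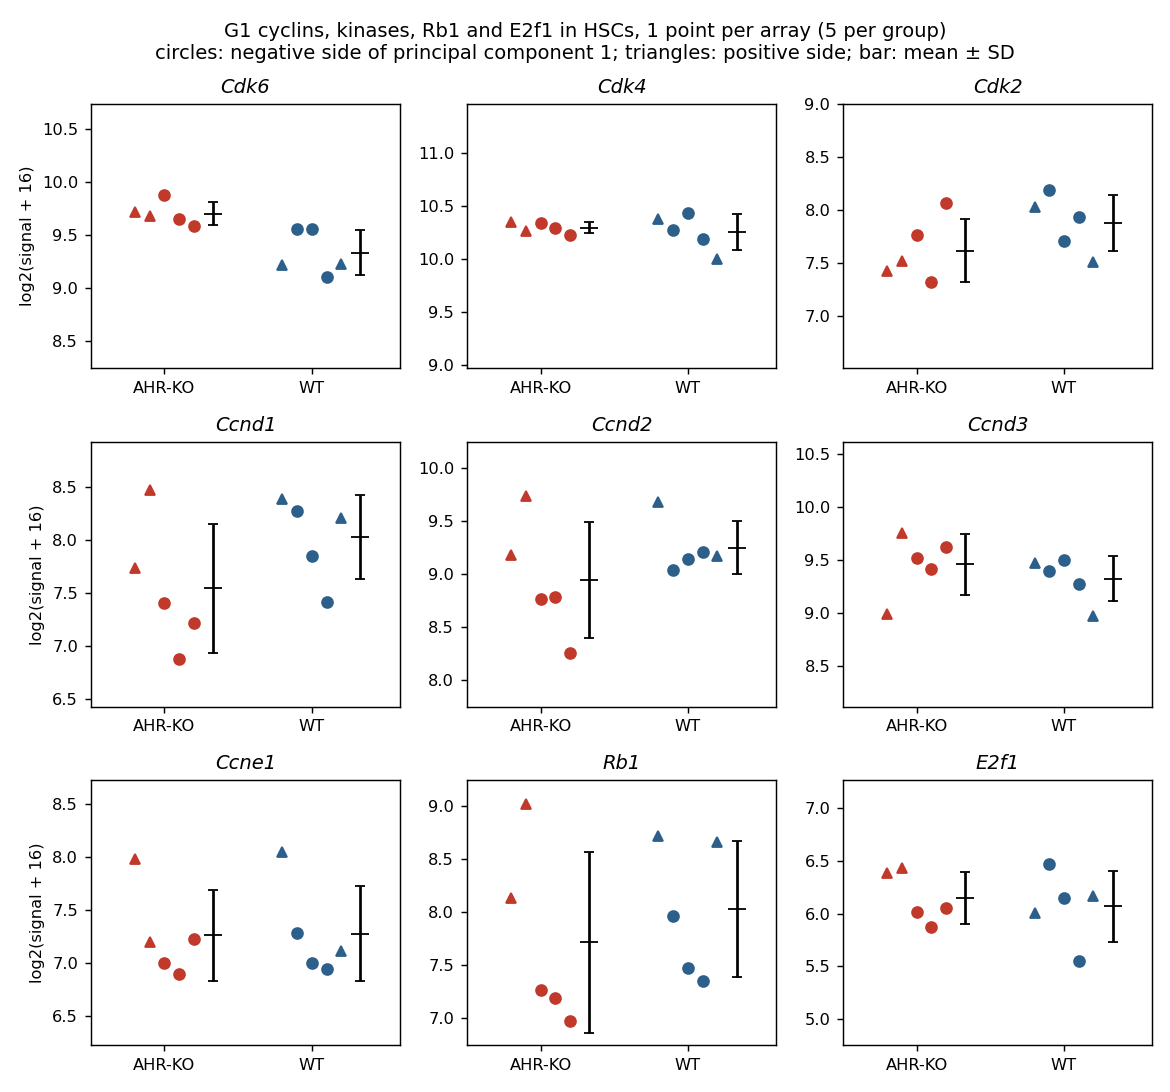
Log2(signal + 16) of the 9 measured genes, 1 panel per gene and 1 point per array, with AHR-KO in red and WT in blue. Every panel spans the same range of log2 units. Triangles are the 4 arrays on the positive side of the main axis of variation between arrays, circles the other 6, and the black bars give the mean ± SD of 5 arrays. The groups do not overlap for Cdk6 alone.

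Of the 3 D-type cyclins, which carry growth signals to CDK4 and CDK6, Ccnd1 and Ccnd2 had lower means in AHR-KO and Ccnd3 a higher one. None was under an unadjusted p of 0.05 in the main limma fit, which has no block and no array weights. With array weights Ccnd1 was under it (log2 fold change -0.61, unadjusted p = 0.0247 from limma). The log2 value of Ccnd1, the cyclin D1 gene, was 7.74, 8.48, 7.41, 6.88 and 7.22 in the AHR-KO arrays (replicates 1 to 5), against 8.39, 8.28, 7.85, 7.42 and 8.21 in the WT arrays (replicates 1 to 5). AHR-KO replicates 3, 4 and 5 lay below all WT arrays, and AHR-KO replicate 2 lay above them all. The means were 7.55 ± 0.61 in AHR-KO and 8.03 ± 0.40 in WT (SD, n = 5 each), a log2 fold change of -0.48 (standard error 0.28, 95% interval -1.10 to 0.13, unadjusted p = 0.111 and adjusted p = 0.998 from limma, exact permutation p = 0.183). This was the member with the largest difference in size. The value depended on single arrays. In limma it was past 1.5-fold with an unadjusted p = 0.00927 (log2 fold change -0.72) without AHR-KO replicate 2 and with an unadjusted p = 0.0445 (-0.64) without WT replicate 4. Without AHR-KO replicate 4 it was -0.32, with an unadjusted p = 0.271 from limma.

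Ccnd2, the cyclin D2 gene, followed the same pattern of arrays. Its log2 value was 9.18, 9.73, 8.76, 8.78 and 8.26 in the AHR-KO arrays (replicates 1 to 5), against 9.68, 9.04, 9.13, 9.21 and 9.16 in the WT arrays (replicates 1 to 5). AHR-KO replicates 3, 4 and 5 again lay below every WT array, and AHR-KO replicate 2 and WT replicate 1 were the highest of their groups. The log2 fold change was -0.30 (standard error 0.24, 95% interval -0.83 to 0.22, unadjusted p = 0.228 from limma, exact permutation p = 0.310). Without AHR-KO replicate 2 it was -0.50, with an unadjusted p = 0.0251 and an adjusted p = 0.914 from limma. It was -0.13 without AHR-KO replicate 5 (unadjusted p = 0.548 from limma) and -0.20 without WT replicate 1 (unadjusted p = 0.443 from limma). The log2 value of Ccnd3, the cyclin D3 gene, was 8.98, 9.75, 9.51, 9.41 and 9.62 in the AHR-KO arrays (replicates 1 to 5), against 9.46, 9.39, 9.49, 9.27 and 8.97 in the WT arrays (replicates 1 to 5). Here 3 AHR-KO arrays were above every WT array and AHR-KO replicate 1 was close to the lowest WT array. Its log2 fold change was 0.14 (standard error 0.16, 95% interval -0.21 to 0.48, unadjusted p = 0.407 from limma), and with 1 array left out it lay between 0.050 (without WT replicate 5) and 0.25 (without AHR-KO replicate 1, unadjusted p = 0.0938 from limma).

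The members that act later, Ccne1, E2f1 and Rb1, passed no test. Ccne1 encodes the cyclin E1 that activates CDK2, and its log2 value was 8.0, 7.2, 7.0, 6.9 and 7.2 in the AHR-KO arrays (replicates 1 to 5), against 8.1, 7.3, 7.0, 6.9 and 7.1 in the WT arrays (replicates 1 to 5). Its log2 fold change was -0.017 (standard error 0.24, 95% interval -0.55 to 0.52, from limma). In each genotype replicate 1 stood above the other 4 arrays, at 7.98 in AHR-KO and 8.05 in WT, and the erythroid score was highest in the same 2 arrays, at 1.36 in AHR-KO replicate 1 and 1.10 in WT replicate 1. The part of erythroid RNA in the level of Ccne1 was not tested. E2f1, which encodes an activating E2F factor, was dim, with log2 values of 6.38, 6.43, 6.01, 5.87 and 6.05 in the AHR-KO arrays (replicates 1 to 5), against 6.00, 6.46, 6.15, 5.56 and 6.16 in the WT arrays (replicates 1 to 5). The groups overlapped, and the log2 fold change was 0.082 (standard error 0.17, 95% interval -0.30 to 0.46, from limma). All 9 members had a mean above background (5.50), but 1 WT array of E2f1, at 5.56, was nearly there.

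Rb1, which encodes the brake that the kinases release, was the most variable member. Its brighter probe set had log2 values of 8.13, 9.02, 7.26, 7.19 and 6.96 in the AHR-KO arrays (replicates 1 to 5), against 8.71, 7.96, 7.47, 7.35 and 8.66 in the WT arrays (replicates 1 to 5). AHR-KO replicates 3, 4 and 5 were below all WT arrays and AHR-KO replicate 2 was above them all, as for Ccnd1. The span within a genotype was 4.16-fold in AHR-KO and 2.58-fold in WT, and 97.9% of all genes had a smaller pooled SD. The log2 fold change was -0.32 (standard error 0.40, 95% interval -1.20 to 0.56, unadjusted p = 0.449 from limma), and with 1 array left out it lay between -0.64 (AHR-KO replicate 2 left out) and -0.13 (AHR-KO replicate 5 left out). The other probe set of Rb1 gave a different order, with 7.85, 6.85, 7.98, 7.85 and 8.06 in AHR-KO replicates 1 to 5 and 7.59, 7.50, 7.45, 7.47 and 7.46 in WT replicates 1 to 5. There 4 AHR-KO arrays lay above all WT arrays and AHR-KO replicate 2 lay below them, and the log2 fold change was 0.22 (standard error 0.20, unadjusted p = 0.297 from limma). The probe sets of Rb1 thus disagreed in sign and in the place of AHR-KO replicate 2, and no direction is given for the gene. A further 2 probe sets that Rb1 shares with Lpar6 were not used.

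**Figure D2:**
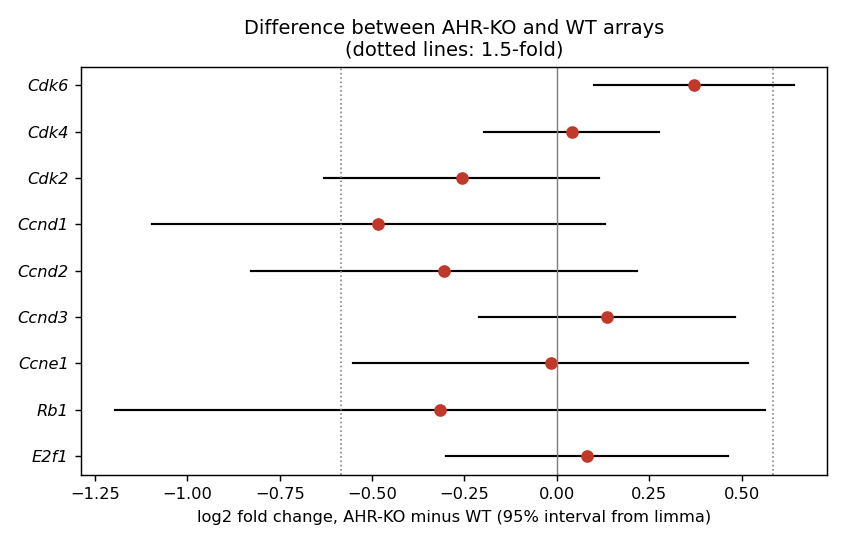
Log2 fold change of each measured gene, AHR-KO minus WT, with the 95% interval from limma over 5 arrays per group. Dotted lines mark 1.5-fold in either direction. The interval of Cdk6 (0.10 to 0.64) is the only one that leaves out 0.

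Counted together, 4 of the 9 members had a higher mean in AHR-KO and 5 a lower one, where 51.1% of all genes had a higher mean. The median log2 fold change of the members was -0.017, and that of all genes was 0.004. At an unadjusted p under 0.05 in limma there was 1 member, Cdk6, against 3.74% of all genes and 1.81% on the higher side. The groups of 1 member did not overlap, against 0.681% of all genes. No member passed an adjusted p under 0.05 (0 of 9, against 0% of all genes, whose adjusted p was 0.998 or higher), and none passed 1.5-fold with an unadjusted p under 0.05, against 0.523% of all genes. A share of 1 in 9 rests on a single gene, so nothing is read from it about the group.

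The brighter probe set of Rb1 followed the main axis of variation, with 8.13 to 9.02 in the 4 arrays on the positive side and 6.96 to 7.96 in the 6 others. The 2 sets of arrays did not overlap there. The other probe set of Rb1 did not follow the axis, at 6.85 to 7.85 on the positive side and 7.45 to 8.06 on the negative side, where the sets overlapped. Ccnd2 was at 9.16 to 9.73 on the positive side, against 8.26 to 9.21 on the other. For Ccnd1 the positive side spanned 7.74 to 8.48 and the other 6.88 to 8.28. These cyclins had their highest values on the positive side and overlapped between the sets. Cdk6 spanned 9.22 to 9.72 on the positive side and 9.10 to 9.88 on the other, so its sets overlapped widely. This comparison of sets is a description, because the sets were taken from the same arrays.

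The genotypes were also compared within each set, a choice made after seeing the data. Within the 6 arrays, Cdk6 was at 9.59 to 9.88 in AHR-KO and 9.10 to 9.56 in WT, with a log2 fold change of 0.30 (unadjusted p = 0.102 from limma, n = 3 each). Within the 4 arrays it was at 9.68 and 9.72 in AHR-KO and 9.22 and 9.23 in WT, with a log2 fold change of 0.48 (unadjusted p = 0.0594 from limma, n = 2 each). Since the groups did not overlap over all 10 arrays, they could not overlap within a set. With fewer arrays the unadjusted p was above 0.05 in each. With the set as a block the log2 fold change of Cdk6 was 0.37 (unadjusted p = 0.0112 from limma) and that of Ccnd1 was -0.48 (unadjusted p = 0.0361 from limma), and the adjusted p of every gene was 0.821 or higher.

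Within the 6 arrays Ccnd1 and Ccnd2 were each lower in all 3 AHR-KO arrays than in all 3 WT arrays. Their log2 fold changes were -0.68 for Ccnd1 (unadjusted p = 0.0148) and -0.53 for Ccnd2 (unadjusted p = 0.0107), both from limma with n = 3 each and an adjusted p of 0.557. The probe sets of Rb1 went opposite ways there without overlap. The brighter was at 6.96 to 7.26 in AHR-KO and 7.35 to 7.96 in WT (log2 fold change -0.45, unadjusted p = 0.0338 from limma), and the other at 7.85 to 8.06 in AHR-KO and 7.45 to 7.50 in WT. With Cdk6 and the brighter probe set of Rb1, the groups of 4 members did not overlap in these 6 arrays, where 14.1% of all genes did not. At an unadjusted p under 0.05 there were 3 members, of which Rb1 rests on that probe set, and 8.58% of all genes. Of the 9 members 2 had a higher mean in AHR-KO in these arrays, against 52.2% of all genes. In the same 6 arrays the AHR-KO arrays were also farther out on the axis, at -33.2 to -18.8, than the WT arrays, at -17.6 to -14.8. The genotype and the place on the axis cannot be told apart there. Within the other 4 arrays the log2 fold changes were -0.19 for Ccnd1, 0.035 for Ccnd2 and -0.11 for the brighter probe set of Rb1 (n = 2 each), with unadjusted p from limma of 0.569, 0.913 and 0.761. There 6 of the 9 members had a higher mean in AHR-KO, against 48.4% of all genes, and the groups of 2 did not overlap, against 33.9% of all genes.

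**Figure D3:**
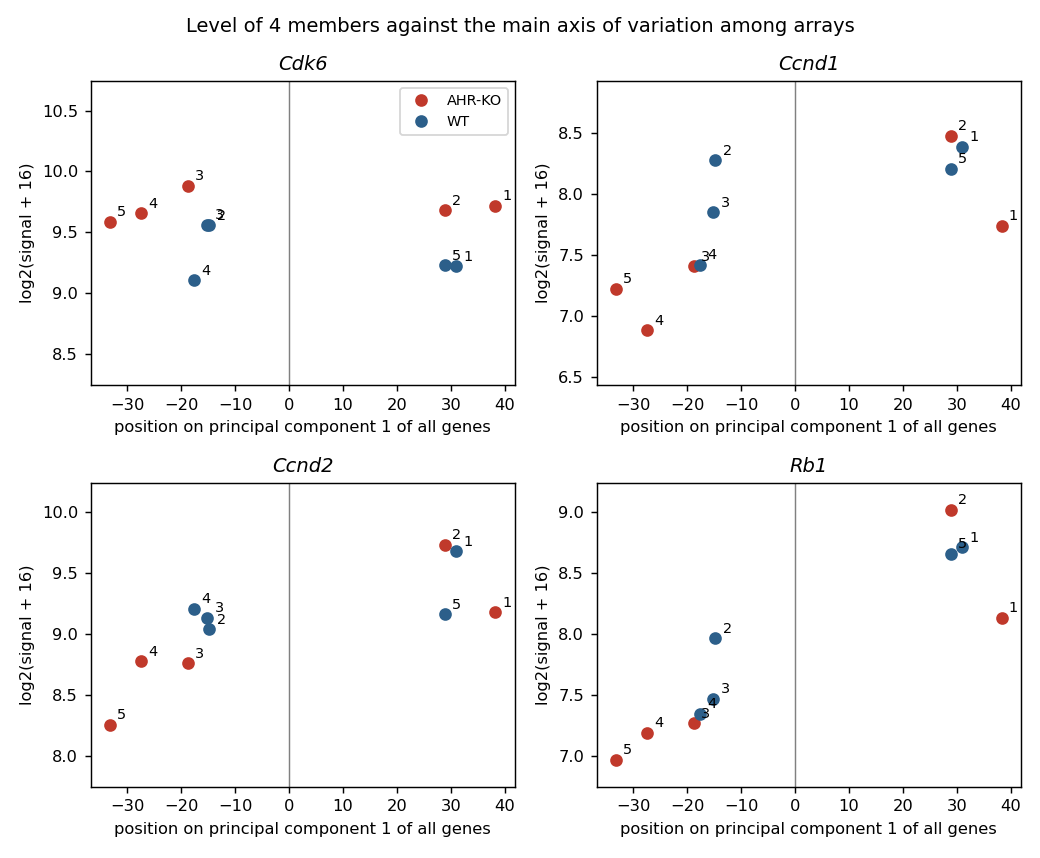
Log2(signal + 16) of Cdk6, Ccnd1, Ccnd2 and Rb1 (brighter probe set) against the position of each array on principal component 1 (computed over all genes), with the replicate number beside each point. AHR-KO arrays are red and WT arrays blue. This probe set of Rb1 is higher in the 4 arrays on the right (8.13 to 9.02) than in the 6 on the left (6.96 to 7.96), which the other probe set of Rb1 (6.85 to 7.85 and 7.45 to 8.06, not plotted) is not, and Cdk6 has arrays of both sides in one range.

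The rest of the G1 pathway was read from 6 lists around the members. Of 7 genes of CDK inhibitors, 3 had a higher and 4 a lower mean in AHR-KO. Cdkn1a, which encodes the inhibitor p21 that p53 induces, was the only one under an unadjusted p of 0.05. It was also the only gene of these 6 lists past 1.5-fold with such a p. Of all genes, 3.74% were under an unadjusted p of 0.05 in limma, and 0.523% were also past 1.5-fold. Cdkn1a was at 7.14 ± 0.26 in AHR-KO and 6.44 ± 0.34 in WT (SD, n = 5 each), a log2 fold change of 0.71 (standard error 0.18, unadjusted p = 0.00211 and adjusted p = 0.998 from limma). Its groups overlapped, at 6.80 to 7.44 in AHR-KO and 6.10 to 6.93 in WT. The unadjusted p from limma was 0.0309 within the 6 arrays and 0.0176 within the 4. Cdkn1a was not past 1.5-fold within the 6 arrays (log2 fold change 0.58), under array weights (0.57) or when 64 was added to the signal in place of 16 (0.49). A kinase of G1 and an inhibitor of such kinases both had higher means in AHR-KO, and neither passed the adjusted p. The lists were chosen with earlier results of these data known, so nothing is read from this pair.

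Of 11 other pocket protein, E2F and DP genes, 7 were on the higher side and none was under an unadjusted p of 0.05 in limma. The nearest was Tfdp1, the DP1 partner that E2F factors need to bind DNA. Its log2 fold change was 0.31 (standard error 0.16, unadjusted p = 0.0740 from limma, exact permutation p = 0.0476), and without WT replicate 2 it was 0.40 (unadjusted p = 0.0295 from limma). Of 7 activators and cofactors of the kinases, 3 were on the higher side and none was under an unadjusted p of 0.05 in limma, the nearest being Cks2, a small CDK subunit, at -0.22 (standard error 0.18, unadjusted p = 0.255 from limma). Within the 6 arrays Cks2 was at -0.43 (unadjusted p = 0.00823 from limma) and within the 4 at 0.10. Of 7 measured genes of the ubiquitin ligases that degrade G1 cyclins and inhibitors, 4 were on the higher side. Cul1, the scaffold of the SCF ligases, was under the limit of an unadjusted p of 0.05 in limma, as were 3.74% of all genes. Its log2 fold change was 0.36 (standard error 0.15, unadjusted p = 0.0315 and adjusted p = 0.998 from limma), with 7.71 to 8.25 in AHR-KO and 7.24 to 7.89 in WT. With AHR-KO replicate 2 or 5, WT replicate 1 or WT replicate 5 left out, Cul1 had log2 fold changes of 0.27 to 0.34 and was not under the limit in limma (unadjusted p of 0.0634 to 0.0784). Nor was it with a pseudocount of 1 (unadjusted p of 0.0625), with array weights (0.0531), within the 6 arrays (0.196) or within the 4 (0.0641).

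Genes that E2F factors switch on for DNA replication and the later genes of division leaned to the higher side, but their scores overlapped between the genotypes. The S-phase score was -0.13 to 0.15 in AHR-KO and -0.26 to 0.14 in WT. The G2 and mitosis score was -0.26 to 0.38 in AHR-KO and -0.16 to 0.02 in WT. It was highest in AHR-KO replicates 5 (0.38) and 3 (0.26) and lowest in AHR-KO replicate 2 (-0.26). Of 17 measured S-phase genes, 14 had a higher mean in AHR-KO, and the median log2 fold change was 0.091, where 51.1% of all genes had a higher mean and their median was 0.004. Ccna2, the cyclin A2 gene, had the smallest p, with a log2 fold change of 0.20 (standard error 0.11, unadjusted p = 0.102 from limma). Of 9 measured G2 and mitosis genes 8 had a higher mean, with a median of 0.19, and Top2a, the topoisomerase of dividing cells, was nearest to the limit at 0.23 (standard error 0.12, unadjusted p = 0.0693 from limma, exact permutation p = 0.0397). No gene of either list was under an unadjusted p of 0.05 in the main limma fit. With a pseudocount of 64 both Ccna2 (unadjusted p = 0.0406 from limma) and Top2a (0.0273) were under it. Top2a was also under it with array weights (unadjusted p = 0.0423 from limma) and in the methods' t-test (0.0381). With an array left out, Ccna2 was under 0.05 without AHR-KO replicate 2 (unadjusted p of 0.0324 from limma). Top2a was when AHR-KO replicate 2, AHR-KO replicate 4 or WT replicate 2 was left out (0.0488 to 0.0497). Genes of the cell cycle are known to move together, so their counts are not independent of each other. Without WT replicate 4 the count of S-phase genes on the higher side was 11, and within the 4 arrays that of G2 and mitosis genes was 5. The part of the erythroid genes and of the mast cell and basophil genes in these counts was not tested.

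**Figure D4:**
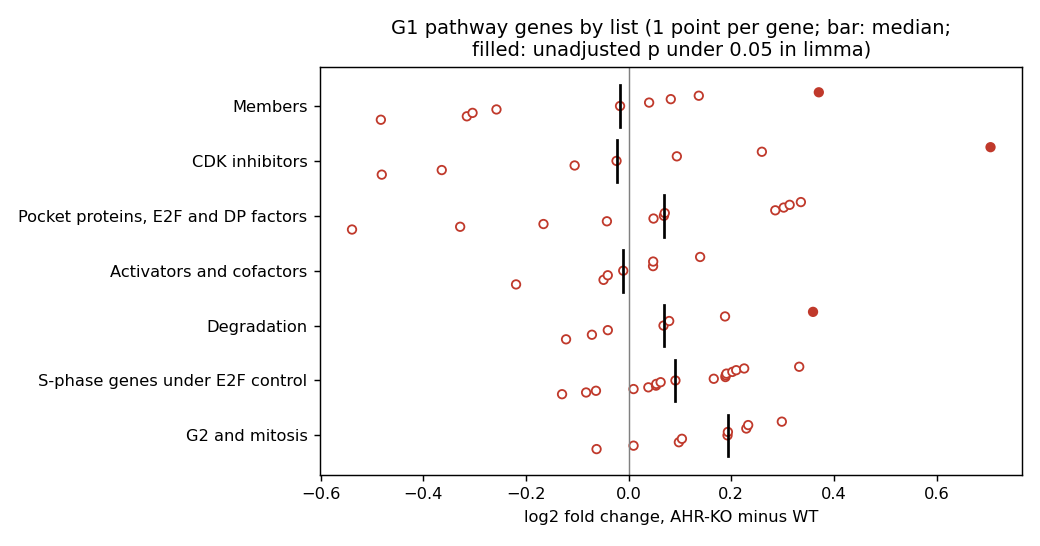
Log2 fold change, AHR-KO minus WT, of each measured gene (points) of the member list and of 6 lists of the G1 pathway, with the median of each list as a black bar. Filled points have an unadjusted p under 0.05 in limma and are Cdk6, Cdkn1a and Cul1. The medians of the S-phase (0.091) and G2 and mitosis (0.19) lists lie right of 0.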

How the data were processed

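SLAM+ HSCs of 18-month-old AHR-KO and WT mice were profiled on 10 arrays. For every probe set the authors deposited an intensity on a linear scale. The methods name IterPLIER, with background subtraction and quantile normalization, and the notes of the submitters name Affymetrix Expression Console. The 10 arrays have equal quantiles (median 24.65), which can hide a change shared by most genes. Precision is limited by the number of arrays.

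Values were taken as log2(signal + 16). Of 41345 probe sets, 23521 had 1 gene symbol in the platform annotation. The probe set with the highest mean stood for each of 22180 genes. The genotypes were compared over all genes with limma 3.58.1 in R 4.3.3 and Benjamini-Hochberg adjustment, and single genes also by a two-sided exact permutation test. The fit was tested on simulated data. The labels do not say whether a replicate number pairs mice, so the main fit has no block.

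Members and lists were chosen with earlier results of these data known. All members are named. Of each list, up to 4 genes under an unadjusted p of 0.05 are named, or else the gene with the smallest p. Alternatives were other pseudocounts, a filter on level, other uses of probe sets, normalization again, other variance models, array weights, a replicate block, the methods' t-test, linear folds and each array left out, plus 3 fits by array set chosen after seeing the data.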

Additional observations from a re-analysis of the deposited data

Results flagged for a closer look

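Among 18 groups of 5 arrays, 1 value stood far from the others of its group. Ccnd2 was at 9.68 in WT replicate 1, where the other 4 WT arrays lay between 9.04 and 9.21. Chance gives such a value in about 1 of 20 groups.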

How the results depend on the processing

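No member passed an adjusted p of 0.05 under any of 21 other settings or the 3 array set fits chosen after seeing the data. Cdk6 kept its sign and an unadjusted p under 0.05 in all 21 settings (limma, or the methods' t-test as 1 of them), with log2 fold changes of 0.31 to 0.43, p-values of 0.00426 to 0.0388 and adjusted p-values of 0.772 or higher. Not all of these are separate checks. Linear folds keep the p-values of the main fit, and normalization again changes little in arrays that already have equal quantiles. Cdk6 did not have an unadjusted p under 0.05 in limma within the 6 arrays (log2 fold change 0.30) or within the 4 (0.48), where fewer arrays were compared. The count of members past 1.5-fold with an unadjusted p under 0.05 was 1 with array weights and within the 6 arrays, and 0 to 1 with an array left out, the member being Ccnd1 each time. Over all 22180 genes that number was 133 with array weights, 331 within the 6 arrays and 99 to 230 with an array left out. The count at an unadjusted p under 0.05 was 2 with array weights, 2 with the replicate block, 2 with the array set as a block, 3 within the 6 arrays and 0 within the 4, and 1 to 3 with an array left out (3 without AHR-KO replicate 2, 2 without AHR-KO replicate 5 or WT replicate 4). Over all 22180 genes it was 1378 with array weights, 871 with the replicate block and 1255 with the array set as a block. It was 1903 within the 6 arrays, 940 within the 4 and 709 to 1153 with an array left out. Members with a higher mean numbered 2 within the 6 arrays, against 52.2% of all genes, and 6 within the 4, against 48.4%. Groups did not overlap for 4 members within the 6 arrays, against 14.1% of all genes, and for 2 within the 4, against 33.9% of all genes.

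Some signs turned. Cdk4 was -0.0090 within the 6 arrays and -0.023 to 0.084 with an array left out. Ccnd2 was 0.035 within the 4 arrays. Ccne1 was 0.0095 within the 4 arrays and -0.20 to 0.18 with an array left out. E2f1 was -0.041 with array weights, -0.079 within the 6 arrays and -0.046 to 0.18 with an array left out. Cks2 was 0.10 within the 4 arrays. The cause was not tested.

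Same-numbered arrays of the genotypes deviated together in 3 of 5 numbers (correlations over all genes of 0.35, 0.15 and 0.21) and not in the others (-0.20 and -0.12). The 3 are the numbers 1, 3 and 4, whose arrays lay on the same side of the main axis in both genotypes. So these correlations cannot tell whether a number pairs mice, and the main fit has no block because the labels do not say. The replicate block moved the count of members at an unadjusted p under 0.05 to 2 by adding Ccnd1 (0.0237). Over all genes, 116 were past 1.5-fold with an unadjusted p under 0.05. With a pseudocount of 1 there were 574, and with 64 there were 16. The number was 429 with linear folds, which were taken from mean signals without a pseudocount and paired with the p-values of the main fit. It was 75 with the methods' t-test, 331 within the 6 arrays, 845 within the 4, and 99 to 230 with an array left out. At an unadjusted p under 0.05 alone there were 830, against 1378 with array weights, 1255 with the set as a block and 1903 within the 6 arrays. The dim level of E2f1 limits what can be read from it.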
